A study of Mus musculus with 10 samples.

Results

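The 47 genes described here copy DNA or supply its building blocks. They were picked by gene name from the steps of replication (origin licensing, helicase, polymerases, clamp and clamp loader, strand processing, nucleotide supply, chromatin and fork protection), out of 54446 genes in the table. Each name occurred once, and all 47 genes passed the filter on low values, a mean of at least 5 normalized counts over the libraries, so all 47 were tested. RNA was taken from whole esophagus of wild-type C57BL/6 mice in 2 groups. In 5 libraries (C1 and D1 to D4) the mice had gone through an experimental model of eosinophilic esophagitis set off with the hapten oxazolone (OXA), and in 5 libraries (A1 to A5) they had received the vehicle. The sources used here give no dose, schedule, sex or age and no meaning for the letters. How the replicates of a group relate to animals is not described either, so the p-values reflect scatter among these libraries, part of which may be technical.

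A cell copies its genome once per cycle. The origin recognition complex (ORC) marks start sites, Cdc6 and Cdt1 load the MCM ring there, and Cdc45 and the GINS complex turn that ring into the active helicase. DNA polymerase α with its primase starts each strand, polymerases δ and ε extend it on the sliding clamp PCNA, and ribonucleotide reductase with the thymidylate enzymes makes the deoxynucleotides. Many of these genes are transcribed under E2F factors as cells enter S phase. In the mouse esophagus, dividing cells lie mainly in the basal layer of the epithelium.

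Libraries were made by CEL-Seq, which counts the 3′ ends of polyadenylated transcripts. They held 3675479 (D2) to 8364227 (D1) reads in OXA and 5094159 (A5) to 12108822 (A4) reads in vehicle. The suprabasal keratins Krt4 and Krt13 were abundant in every library (Krt4 83957 to 244507 normalized counts in OXA and 314885 to 557888 in vehicle). The 4 eosinophil markers were close to 0, with a summed level of 2.13 to 27.1 in OXA and 0 to 2.08 in vehicle, and Epx and Ccr3 were at 0 in all 5 vehicle libraries. A value of 0 is compatible with up to 3 reads, on average 3.50 normalized counts in OXA and 2.82 in vehicle, counting error only. The letters go with treatment (C and D in OXA, A in vehicle), so whatever the letters stand for and the treatment cannot be told apart.

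Most of the replication genes had a higher mean log2 level in OXA than in vehicle, and the test called a minority of them. Of the 47 genes, 13 rose (27.7%), 2 fell (4.26%) and 32 did not pass the test, which does not show that they were equal in both groups. Across all 14712 genes tested, 15.7% rose and 14.2% fell in the same fit. The test was limma with a mean-variance trend on log2(normalized counts + 1), two-sided, with Benjamini-Hochberg adjusted p under 0.05 over all genes tested. The median log2 fold change of the 47 genes was 0.43, against -0.01 over all genes tested. Above 0 were 38 of the 47, against 7271 of all 14712 genes tested. In 11 of the 47 every OXA library lay above every vehicle library, a pattern found in 12% of all genes tested. In 1 of the 47, Pold2, every OXA library lay below every vehicle library, as in 10.4% of all genes tested. In RNA of whole tissue, more cells of a type and more RNA per cell cannot be told apart.

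**Figure D1:**
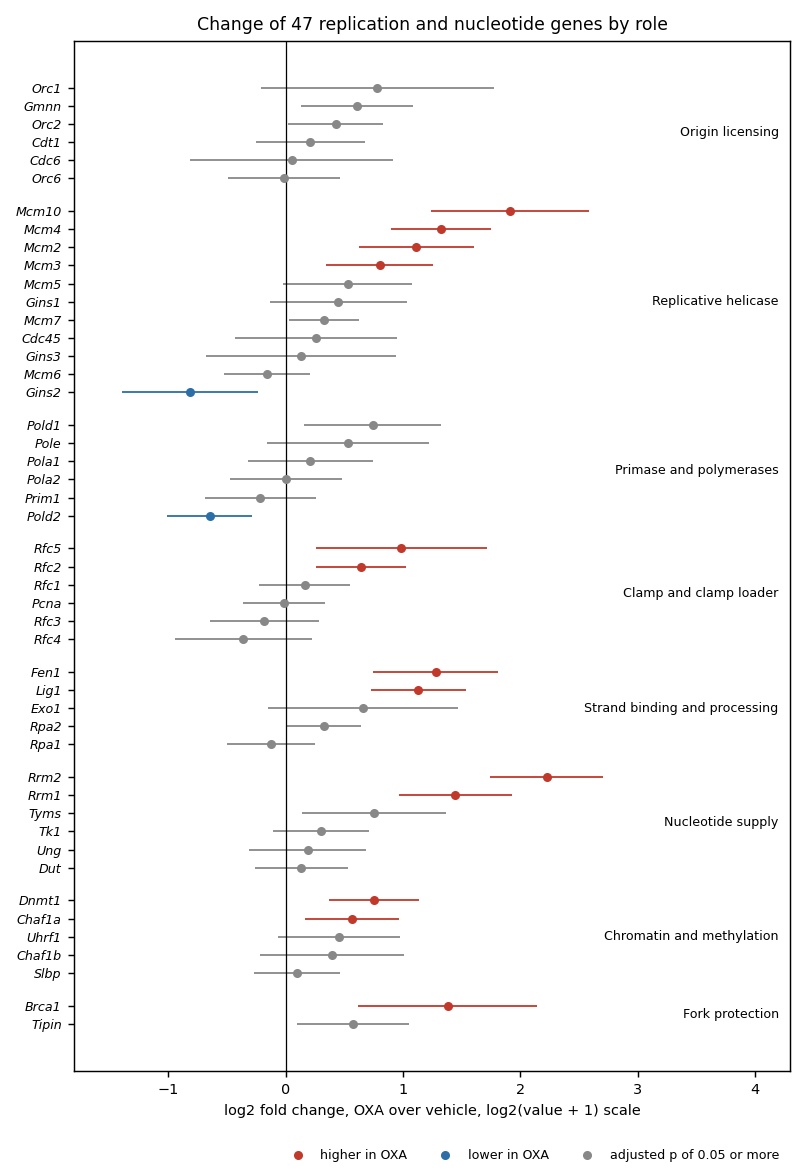
Log2 fold change of each of the 47 genes, OXA over vehicle, on the log2(value + 1) scale, with the 95% confidence interval from limma as a line. Genes are grouped by role and ordered by fold change within a role. Red marks the 13 genes that rose, blue the 2 that fell and grey the 32 that did not pass the test. Rrm2 lies farthest to the right (2.22) and Gins2 farthest to the left (-0.82).

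The 13 genes that rose were Mcm2, Mcm3, Mcm4, Mcm10, Rfc2, Rfc5, Fen1, Lig1, Rrm1, Rrm2, Dnmt1, Chaf1a and Brca1. Those that fell were Gins2 and Pold2. They were spread over the roles: 0 of 6 licensing genes rose, 4 of 11 helicase genes, 0 of 6 primase and polymerase genes, 2 of 6 clamp and loader genes, 2 of 5 strand binding and processing genes, 2 of 6 nucleotide genes, 2 of 5 chromatin and methylation genes and 1 of 2 fork protection genes. No role had a majority of its members past the test. Median log2 fold changes by role were 0.32 for licensing, 0.45 for the helicase, 0.11 for polymerases, 0.08 for clamp and loader, 0.66 for strand processing, 0.53 for nucleotide supply, 0.45 for chromatin and 0.98 for fork protection.

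The size of the count depended on scaling. When the recovered reads were scaled to library totals in place of the deposited factors, the median of all genes tested moved to 0.115, and the split of calls over the whole table moved to 2915 higher and 1545 lower, against 2309 and 2085 with the deposited factors. Under that scaling 20 of the 47 rose and 1, Pold2, fell (19.8% and 10.5% of all genes). The other alternatives gave 11 to 16 rises among the 47. Over all genes tested they gave from 1896 rises (of 14692, without C1) to 2627 (of 14712, DESeq2). With no filter, 2094 of 26612 genes rose.

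Promoter sequence was read for the 39 of the 47 genes that have an entry in the RefSeq promoter table (GRCm38.p6, 250 bases before to 50 after the start of transcription), because genes of this kind are textbook E2F targets and the windows show how far that shared feature goes with the change. The E2F core was searched as TTCCCGC, alternatively as TTCGCGC, then as TTGCCGC and finally as TTGGCGC, on both strands, and matches may overlap each other. At least 1 core lay in a window of 24 of 39 genes (61.5%), against 18.5% of the 10861 tested genes with a window. By window, 27 of the 48 windows of these genes (56.25%) held a core, against 9.57% of all 32851 windows. Base composition was not matched between these sets. Among the 11 genes with a window that rose, 8 had a core, and among the other 28 genes 16 did. The CCAAT box was in 26 of 39 genes (66.7%), against 42.5% of tested genes. By window it was in 30 of 48 (62.5%), against 37.4% of all windows. The letters TTTGAA were in 6 of 39 (15.4%), against 14.9% of tested genes. Windows of 6 genes are printed here 5′ to 3′ on the strand of the gene, with E2F cores in capitals. Rrm2, Rrm1, Mcm3 and Mcm10 rose, while Mcm6 and Pola1, which hold 5 and 4 cores, did not pass the test. The windows are chr12:24708004-24708303 on the plus strand for Rrm2, chr7:102441445-102441744 on the plus strand for Rrm1, chr1:20820263-20820562 on the minus strand for Mcm3, chr2:5012742-5013041 on the minus strand for Mcm10, chr1:128359656-128359955 on the minus strand for Mcm6 and chrX:93632106-93632405 on the minus strand for Pola1.
Rrm2: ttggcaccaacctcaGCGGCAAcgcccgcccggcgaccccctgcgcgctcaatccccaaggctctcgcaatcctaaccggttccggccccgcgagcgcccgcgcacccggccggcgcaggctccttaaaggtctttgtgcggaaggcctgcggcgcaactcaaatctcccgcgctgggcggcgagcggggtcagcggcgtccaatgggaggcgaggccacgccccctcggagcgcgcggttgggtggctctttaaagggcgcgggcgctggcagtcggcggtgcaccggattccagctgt
Rrm1: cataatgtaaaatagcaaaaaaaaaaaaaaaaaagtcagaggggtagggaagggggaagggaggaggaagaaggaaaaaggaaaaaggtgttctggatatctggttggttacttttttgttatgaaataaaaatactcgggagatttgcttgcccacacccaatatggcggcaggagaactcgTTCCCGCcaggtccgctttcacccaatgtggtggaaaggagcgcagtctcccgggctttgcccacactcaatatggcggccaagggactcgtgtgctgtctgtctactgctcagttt
Mcm3: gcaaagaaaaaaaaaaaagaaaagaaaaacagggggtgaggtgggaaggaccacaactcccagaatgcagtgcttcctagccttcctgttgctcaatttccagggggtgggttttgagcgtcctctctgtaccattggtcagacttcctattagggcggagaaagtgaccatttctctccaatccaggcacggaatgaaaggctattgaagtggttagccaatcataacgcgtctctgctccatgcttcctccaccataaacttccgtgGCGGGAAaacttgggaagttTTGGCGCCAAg
Mcm10: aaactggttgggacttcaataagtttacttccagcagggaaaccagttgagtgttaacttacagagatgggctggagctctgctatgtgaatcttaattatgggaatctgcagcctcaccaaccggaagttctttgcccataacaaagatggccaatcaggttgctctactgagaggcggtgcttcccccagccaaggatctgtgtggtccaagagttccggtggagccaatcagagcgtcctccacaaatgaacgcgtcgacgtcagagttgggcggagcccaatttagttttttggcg
Mcm6: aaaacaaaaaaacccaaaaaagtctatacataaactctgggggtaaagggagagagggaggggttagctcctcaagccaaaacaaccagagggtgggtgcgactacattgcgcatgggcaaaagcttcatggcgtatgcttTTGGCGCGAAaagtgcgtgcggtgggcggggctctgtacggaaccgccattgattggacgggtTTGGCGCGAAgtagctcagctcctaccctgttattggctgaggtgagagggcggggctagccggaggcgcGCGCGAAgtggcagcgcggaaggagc
Pola1: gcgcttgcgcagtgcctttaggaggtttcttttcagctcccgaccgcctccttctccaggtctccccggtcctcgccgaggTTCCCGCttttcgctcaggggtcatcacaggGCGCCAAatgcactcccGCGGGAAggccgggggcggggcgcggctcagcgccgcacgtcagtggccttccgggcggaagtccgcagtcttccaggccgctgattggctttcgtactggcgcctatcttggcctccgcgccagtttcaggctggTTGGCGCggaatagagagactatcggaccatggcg

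Rrm2 has 1 core, starting 235 bases before the start of transcription, and Rrm1 has 1, at 67 bases before it. Mcm3 has 3 cores, all after the start (positions 20, 40 and 43), where a palindrome gives a match on both strands. Mcm10, with a log2 fold change of 1.91, has no core in this window and 3 CCAAT boxes. Its window ends in the letters TTGGCG, so a core cut by the edge would not be counted. The 6 windows are picked examples, so they cannot show how the number of cores goes with the size of the change. That relation was not tested. A match of letters is a description and not a site of binding.

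Per-library values below are normalized counts, in the order C1, D1, D2, D3, D4 for OXA and A1, A2, A3, A4, A5 for vehicle. Fold changes are OXA over vehicle on the log2(value + 1) scale with the standard error (SE) from limma. Levels of different genes are not compared. Values of Mcm3, Mcm4, Mcm6, Gins3, Pold2, Rfc2 and Rfc5 were chosen for printing after they were seen.

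The largest change among the 47 genes was that of Rrm2, in nucleotide supply. Rrm2 (chr12:24708241-24714446, ENSMUSG00000020649) encodes the small subunit of ribonucleotide reductase, the S-phase-regulated part of the enzyme that turns ribonucleotides into deoxyribonucleotides. Rrm2 had 492, 472, 436, 415 and 889 in the OXA libraries, against 139.7, 85.5, 116, 82.6 and 142 in the vehicle libraries. Every OXA library was far above every vehicle library, and D4 was the highest. The means were 541 ± 197 in OXA and 113 ± 28.4 in vehicle (SD, n = 5 each), a log2 fold change of 2.22 ± 0.23 (SE; limma adjusted p = 1.10e-05).

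Rrm1 (chr7:102441695-102470071) encodes the large, catalytic subunit of the same enzyme. It had 347, 235, 301, 368 and 562 in OXA, against 128, 99.0, 137, 104 and 182 in vehicle, with no overlap. The rise of Rrm1 was 1.45 ± 0.23 (SE; limma adjusted p = 3.28e-04). Tyms, the thymidylate synthase that methylates dUMP to dTMP, had 79.4, 56.9, 85.1, 60.3 and 169 in OXA and 49.3, 44.2, 66.3, 34.3 and 55.8 in vehicle. D4 stood far above the other OXA libraries, and A3 was the only vehicle library above any OXA library (D1 and D3). The difference of Tyms, 0.75 ± 0.29 (SE; limma adjusted p = 0.0611), missed the threshold, but it passed under 5 of 23 alternatives, among them scaling to library totals (adjusted p = 0.0270), edgeR (0.0408), DESeq2 (0.0277) and the fits without D1 (0.0336) or without D3 (0.0471).

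The other nucleotide enzymes did not pass. Thymidine kinase Tk1, the salvage enzyme of dividing cells, had 125, 102, 129, 145 and 152 in OXA and 124, 84.8, 98.4, 82.6 and 147 in vehicle (0.30 ± 0.19 (SE; limma adjusted p = 0.255)). Dut, which removes dUTP before it can be built into DNA, had 253, 163, 197, 198 and 324 in OXA and 190.0, 180.0, 205, 185 and 256 in vehicle (0.13 ± 0.18 (SE; limma adjusted p = 0.627)). For Dut the 95% interval of the log2 fold change ran from -0.26 to 0.53. Ung, the glycosylase that removes uracil from DNA, had 52.7, 61.8, 61.6, 58.4 and 105 in OXA and 53.4, 52.5, 74.0, 42.1 and 73.0 in vehicle (0.19 ± 0.23 (SE; limma adjusted p = 0.578)), and apart from D4 its OXA libraries lay inside the vehicle range. The summed level of the 6 nucleotide genes was 1092 to 2201 in OXA and 530.3 to 856 in vehicle, a ratio of means of 2.14, most of it from Rrm1 and Rrm2.

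**Figure D2:**
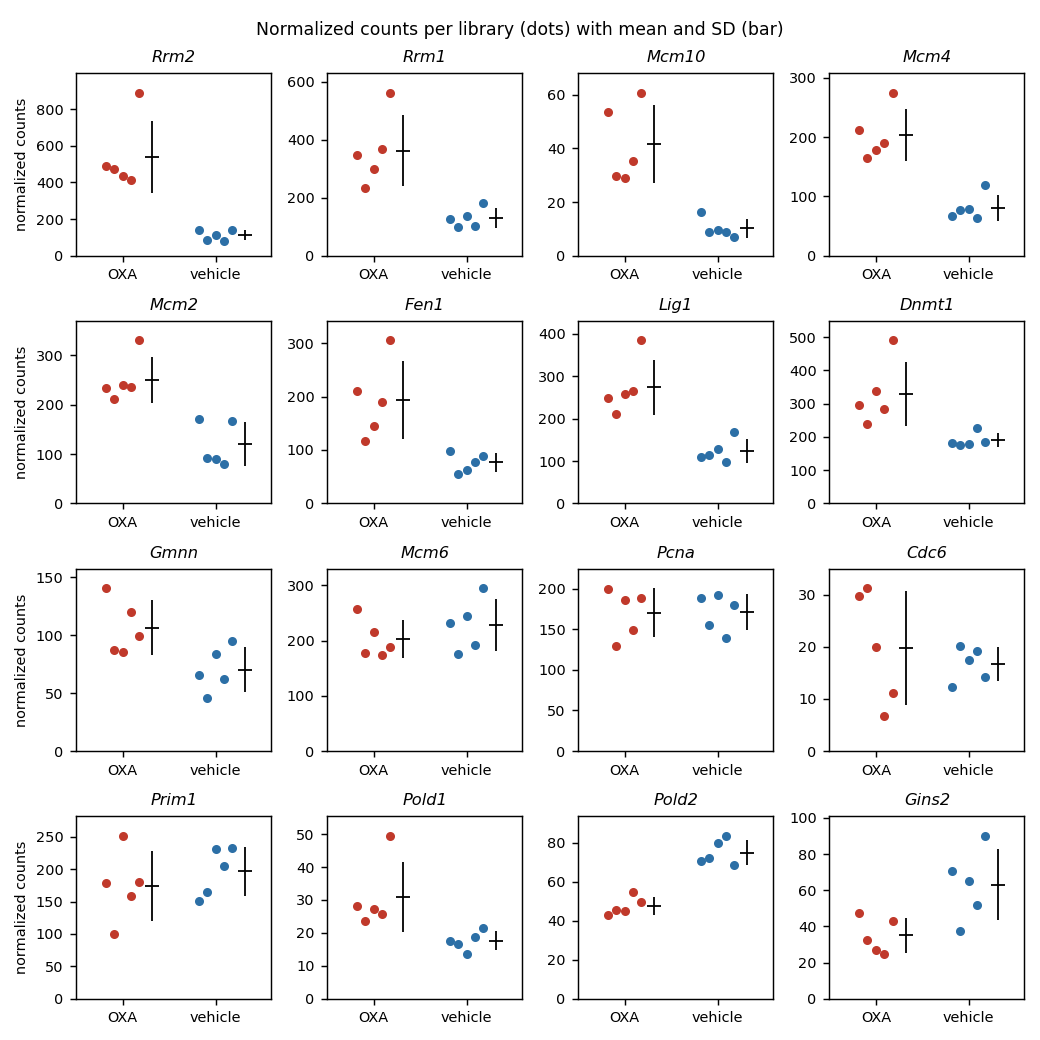
Normalized counts of 16 of the 47 genes in each library, OXA in red on the left and vehicle in blue on the right, with the group mean as a tick and the SD as a bar; each axis starts at 0. In the upper 2 rows every OXA dot lies above every vehicle dot. In the lower 2 rows the groups overlap, except for Pold1, where OXA lies above, and Pold2, where OXA lies below.

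Of the 6 licensing genes, 0 passed by limma. At an unadjusted p under 0.05, 2 (Orc2 and Gmnn) were higher, and by edgeR, DESeq2 and limma-voom 1 was, Gmnn. Orc1, the ATPase subunit that ORC gains before licensing, had 5.34, 13.5, 3.62, 12.4 and 9.58 in OXA and 3.08, 6.75, 4.87, 3.12 and 4.29 in vehicle, low counts that came from 47 reads in all OXA libraries and 26 reads in all vehicle libraries. D1, D3 and D4 lay above the vehicle range and C1 and D2 inside it, and the difference was 0.78 ± 0.46 (SE; limma adjusted p = 0.222). Orc2, a core subunit of ORC, had 83.2, 112, 83.3, 94.8 and 131 in OXA and 84.2, 55.5, 84.8, 73.2 and 74.4 in vehicle (0.43 ± 0.19 (SE; limma adjusted p = 0.104)). Orc6, the smallest subunit, had 74.8, 63.3, 56.1, 107 and 51.1 in OXA and 71.9, 57.0, 75.0, 85.2 and 58.7 in vehicle (-0.02 ± 0.22 (SE; limma adjusted p = 0.967)). Both genes overlapped between groups, D3 being the high OXA library for Orc6 and D4 for Orc2. Orc2 shares up to 686 exonic bases with Nif3l1 on the opposite strand, at 69.3 normalized counts in OXA and 76.3 in vehicle.

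Cdc6 and Cdt1 bring the MCM ring to ORC. Cdc6 had 29.8, 31.3, 19.9, 6.70 and 11.2 in OXA and 12.3, 20.2, 17.5, 19.2 and 14.3 in vehicle. The OXA libraries split around the vehicle range, with C1 and D1 above it, D2 in it, and D3 and D4 below it. The 95% interval of its log2 fold change was accordingly wide, from -0.81 to 0.92 around 0.05 (limma adjusted p = 0.937). Cdt1 had 116, 87.4, 99.6, 123 and 144 in OXA and 103, 90.8, 78.9, 73.2 and 157 in vehicle (0.21 ± 0.22 (SE; limma adjusted p = 0.495)), with A5 the highest of all 10 libraries.

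Gmnn encodes geminin, which binds Cdt1 in S and G2 phase and blocks a second round of licensing. It had 140.4, 87.4, 85.1, 119.7 and 99.0 in OXA and 65.7, 45.8, 83.8, 61.8 and 94.4 in vehicle. C1, D3 and D4 were above all vehicle libraries, and D1 and D2 lay below A5 alone. The difference of 0.61 ± 0.22 (SE; limma adjusted p = 0.0519) was just outside the threshold, and 10 of 23 alternatives put it inside, including library totals (adjusted p = 0.0196), edgeR (0.0387), DESeq2 (0.0313), limma-voom (0.0230) and the fits without A5 (0.0297), D1 (0.0459) or D2 (0.0395).

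Of the 6 subunits of the MCM ring, Mcm2, Mcm3 and Mcm4 rose, and Mcm5, Mcm6 and Mcm7 did not pass the test. Mcm2 (chr6:88883174-88898780) had 234, 212, 241, 236 and 330.4 in OXA and 171, 91.5, 90.6, 80.5 and 167 in vehicle. The groups did not overlap, although A1 and A5 were well above the other vehicle libraries. The means were 250.4 ± 46.1 in OXA and 120.1 ± 44.8 in vehicle (SD, n = 5 each), a log2 fold change of 1.11 ± 0.23 (SE; limma adjusted p = 0.00225).

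Mcm4 (chr16:15623597-15637400) had 211, 164, 177, 189.6 and 275 in OXA and 67.8, 77.2, 78.9, 63.9 and 119 in vehicle, again with no overlap (1.32 ± 0.20 (SE; limma adjusted p = 2.29e-04)). Mcm3 (chr1:20802668-20820312) had 176, 132, 101, 133 and 220.3 in OXA and 86.3, 78.0, 79.9, 70.1 and 112 in vehicle. Here D2 lay below A5, and the other OXA libraries were above all vehicle libraries. The rise of Mcm3 was 0.80 ± 0.21 (SE; limma adjusted p = 0.0115).

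Mcm5 had 136, 90.3, 57.9, 110.1 and 117 in OXA and 94.5, 75.8, 70.2, 42.1 and 67.2 in vehicle (0.53 ± 0.26 (SE; limma adjusted p = 0.135)). D1 and D2 lay inside the vehicle range, and without D2 the adjusted p of Mcm5 was 0.0299. Mcm7 had 364, 326, 319, 399 and 354 in OXA and 304, 249.7, 239.7, 266 and 358 in vehicle (0.32 ± 0.14 (SE; limma adjusted p = 0.0959)), and it passed under library totals (adjusted p = 0.0258) and without A5 (0.0375), the highest vehicle library. Mcm6, whose promoter window holds 5 E2F cores, had 256, 177, 215, 174 and 188 in OXA and 231, 175, 244, 193 and 295 in vehicle. Its groups lay on top of each other, with a log2 fold change of -0.16 ± 0.17 (SE; limma adjusted p = 0.512) and a 95% interval from -0.52 to 0.20, an interval whose upper end is below the estimates for Mcm2, Mcm3 and Mcm4. The differences between subunits were not tested.

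Mcm10, which binds the loaded ring and helps to start unwinding, had the second largest change among the 47 genes. Mcm10 (chr2:4989414-5012791) had 53.4, 29.9, 29.0, 35.4 and 60.7 in OXA and 16.4, 9, 9.74, 8.83 and 7.15 in vehicle. All OXA libraries were above all vehicle libraries. Its log2 fold change was 1.91 ± 0.32 (SE; limma adjusted p = 5.03e-04), from 203 reads in OXA and 60 reads in vehicle.

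Of the partners that complete the helicase, Cdc45, Gins1 and Gins3 did not pass the test. Cdc45 had 72.5, 39.1, 48.9, 42.1 and 52.7 in OXA and 71.9, 27.8, 35.1, 24.4 and 71.5 in vehicle (0.26 ± 0.32 (SE; limma adjusted p = 0.580)), with the vehicle libraries A1 and A5 as high as C1. Gins1 had 66.4, 65.4, 96.0, 86.2 and 150.1 in OXA and 86.3, 45.8, 62.4, 47.3 and 95.9 in vehicle (0.45 ± 0.27 (SE; limma adjusted p = 0.233)). Gins3 had 28.2, 24.9, 9.05, 16.3 and 27.1 in OXA and 31.8, 12, 20.5, 11.9 and 18.6 in vehicle (0.13 ± 0.38 (SE; limma adjusted p = 0.818)). In all 3 genes the ranges overlapped widely.

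Gins2, the Psf2 subunit of GINS, fell. It had 47.3, 32.7, 27.2, 24.9 and 43.1 in OXA and 70.9, 37.5, 65.3, 51.9 and 90.2 in vehicle. C1 and D4 lay above A2, the lowest vehicle library, and the other OXA libraries were below all vehicle libraries. The change was -0.82 ± 0.27 (SE; limma adjusted p = 0.0347), and this call was fragile: without A1, A3, A5, D1, D2 or D3 the adjusted p was between 0.0536 and 0.0874, and it was 0.0675 with library totals. Gins2 shares up to 2758 exonic bases with Gse1 on the opposite strand, which had 380.0 normalized counts in OXA and 272 in vehicle, and the sources used here do not say whether the counting used strand.

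**Figure D3:**
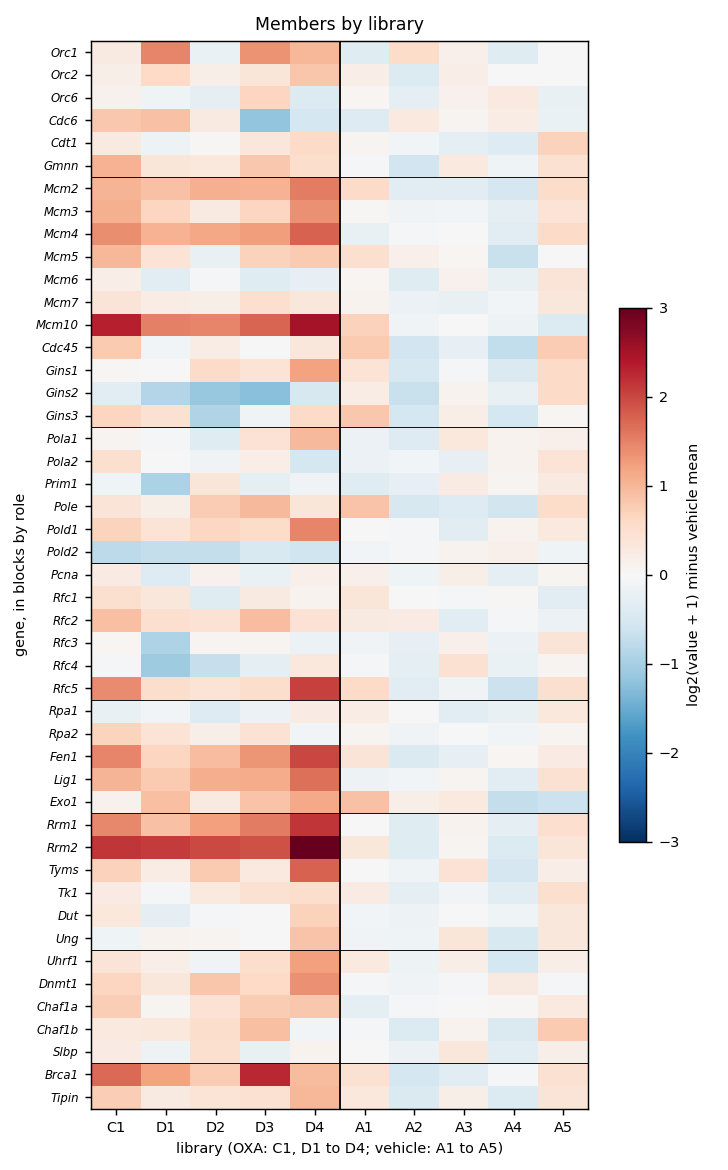
Difference of log2(value + 1) from the vehicle mean for each of the 47 genes (rows, in blocks by role) in each library (columns, OXA left of the line and vehicle right of it). Red is above and blue below the vehicle mean. Mcm2, Mcm4, Mcm10, Fen1, Lig1, Rrm1, Rrm2 and Brca1, among others, are red in all 5 OXA columns, and Pold2 is blue in all 5; D4 holds the highest OXA value of 25 of the 47 genes and D1 the lowest of 20.

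Of the 6 primase and polymerase genes, 0 rose and 1 fell by limma. At an unadjusted p under 0.05 the count of rises was 1, and it was 0 by edgeR, 0 by limma-voom and 1 by DESeq2. Pold2 (chr11:5871880-5878292), the accessory subunit that ties the catalytic subunit of polymerase δ to the rest of the complex, had 42.8, 45.5, 45.3, 54.6 and 49.5 in OXA and 70.9, 72.0, 79.9, 83.6 and 68.7 in vehicle. Every OXA library was below every vehicle library, and both groups were tight, with means of 47.5 ± 4.63 in OXA and 75.0 ± 6.40 in vehicle (SD, n = 5 each). The change was -0.65 ± 0.17 (SE; limma adjusted p = 0.00994), and it stayed past the threshold under all 23 alternatives. Its catalytic partner Pold1 had 28.2, 23.5, 27.2, 25.9 and 49.5 in OXA and 17.5, 16.5, 13.6, 18.7 and 21.5 in vehicle. These groups also did not overlap, but with OXA above vehicle, and the difference of 0.74 ± 0.27 (SE; limma adjusted p = 0.0543) missed the threshold. Pold1 passed under library totals (adjusted p = 0.0302), DESeq2 (0.0350), a pseudocount of 5 (0.04999) and limma without the trend (0.0257). The estimates for these subunits of one enzyme had opposite signs, and the difference between them was not tested.

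The other polymerase genes overlapped between groups. Pole, the catalytic subunit of polymerase ε, had 30.5, 26.3, 39.8, 46.9 and 30.3 in OXA and 43.1, 16.5, 17.5, 15.6 and 34.3 in vehicle (0.53 ± 0.32 (SE; limma adjusted p = 0.231)). Pola1, the catalytic subunit of polymerase α, had 64.9, 58.3, 47.1, 82.4 and 119.7 in OXA and 53.4, 46.5, 76.0, 66.0 and 67.2 in vehicle (0.21 ± 0.25 (SE; limma adjusted p = 0.554)), with D3 and D4 above the vehicle range. Pola2, its regulatory subunit, had 85.5, 59.7, 56.1, 69.9 and 41.5 in OXA and 53.4, 57.0, 50.7, 65.4 and 81.6 in vehicle (0.00 ± 0.22 (SE; limma adjusted p = 0.993)). The estimate for Pola2 was close to 0 and its 95% interval ran from -0.47 to 0.48. Prim1, the catalytic subunit of primase, had 179, 100.2, 251.65, 159 and 180.4 in OXA and 151, 164, 231, 205 and 233 in vehicle (-0.22 ± 0.22 (SE; limma adjusted p = 0.494)). D1 was the lowest and D2 the highest of the 10 libraries for Prim1. The summed level of the 6 genes was 313 to 471 in OXA and 373 to 507 in vehicle.

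Pcna, the sliding clamp and a common marker of replicating cells, did not differ detectably. It had 199.99, 129, 186, 148 and 188 in OXA and 188, 155, 192, 139.7 and 180.3 in vehicle, with means of 171 ± 30.1 in OXA and 171 ± 22.6 in vehicle (SD, n = 5 each). The log2 fold change was -0.01 ± 0.16 (SE; limma adjusted p = 0.962), and its 95% interval ran from -0.36 to 0.33. With library totals the estimate was 0.12.

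The clamp loader, replication factor C, opens Pcna and closes it around DNA. Rfc2 had 176, 133, 125, 176 and 126 in OXA and 113, 111, 74.0, 91.4 and 81.6 in vehicle, with no overlap (0.64 ± 0.18 (SE; limma adjusted p = 0.0150)). It shares up to 952 exonic bases with the opposite-strand gene Lat2, which itself had 128 normalized counts in OXA and 29.4 in vehicle. Rfc5 had 102, 54.7, 50.7, 54.6 and 158 in OXA and 56.5, 30, 35.1, 23.9 and 52.9 in vehicle, with C1 and D4 far above the rest and D1, D2 and D3 within the vehicle range. Its rise of 0.98 ± 0.34 (SE; limma adjusted p = 0.0420) was lost without A2, A3, A4, C1 or D4, with adjusted p between 0.0804 and 0.101. Rfc5 overlaps Wsb2 on the opposite strand over 499 exonic bases.

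The remaining loader subunits did not pass. Rfc1, the large subunit, had 243, 219, 134, 211 and 187 in OXA and 225, 172, 166, 178 and 139 in vehicle (0.16 ± 0.18 (SE; limma adjusted p = 0.531)). Rfc3 had 111, 55.4, 112, 112 and 94.2 in OXA and 99.6, 89.2, 118, 93.5 and 140.2 in vehicle (-0.18 ± 0.22 (SE; limma adjusted p = 0.563)). Rfc4 had 45.0, 22.0, 29.0, 38.3 and 59.1 in OXA and 45.2, 39.0, 65.3, 41.0 and 50.1 in vehicle (-0.36 ± 0.27 (SE; limma adjusted p = 0.340)). D1 was the lowest of all 10 libraries for both Rfc3 and Rfc4.

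Fen1 and Lig1, among the enzymes that finish the lagging strand, rose. Fen1 (chr19:10198832-10204169), the nuclease that trims the flaps of Okazaki fragments, had 211, 117, 145, 191 and 305 in OXA and 98.6, 55.5, 63.3, 77.9 and 88.7 in vehicle. Lig1 (chr7:13277283-13311733), the ligase that then seals the nick, had 249, 211, 259, 265 and 385 in OXA and 109.9, 115, 129.6, 97.6 and 169 in vehicle. Neither gene overlapped between the groups, and D4 was the highest library in both. The change of Fen1 was 1.28 ± 0.25 (SE; limma adjusted p = 0.00154) and that of Lig1 was 1.13 ± 0.19 (SE; limma adjusted p = 5.15e-04).

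The single-strand binding protein RPA did not pass. Rpa1 had 122, 134, 109, 125 and 171 in OXA and 167, 142, 114, 122 and 179 in vehicle (-0.13 ± 0.17 (SE; limma adjusted p = 0.621)). Rpa2 had 334, 279, 235, 283 and 198 in OXA and 221, 193, 212, 199 and 222 in vehicle (0.32 ± 0.15 (SE; limma adjusted p = 0.121)), with C1, D1, D2 and D3 above all vehicle libraries and D4 among them. Without D4 the adjusted p of Rpa2 was 0.0301. Exo1, the exonuclease of mismatch repair and of stalled forks, had 13.0, 22.8, 14.5, 22.0 and 27.1 in OXA and 22.6, 13.5, 14.6, 6.75 and 7.15 in vehicle (0.66 ± 0.38 (SE; limma adjusted p = 0.204)), at 97 reads in OXA and 73 in vehicle.

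Of the chromatin genes, Dnmt1 and Chaf1a rose. Dnmt1 (chr9:20906909-20959888), which copies CpG methylation onto the new strand, had 296, 238, 339, 285 and 490.1 in OXA and 183, 175, 180.3, 227 and 185 in vehicle. The groups did not overlap, and the change was 0.76 ± 0.18 (SE; limma adjusted p = 0.00580). Chaf1a, the large subunit of the chromatin assembly factor CAF-1, had 119, 74.6, 96.0, 119.7 and 125 in OXA and 57.5, 67.5, 71.1, 72.7 and 87.3 in vehicle, with D1 inside the vehicle range. Its rise of 0.57 ± 0.19 (SE; limma adjusted p = 0.0359) was lost without A1, A2, A3, A4, C1, D3 or D4 (adjusted p between 0.0620 and 0.0873). It shares up to 2542 exonic bases with Ubxn6 on the opposite strand, at 170 normalized counts in OXA and 199 in vehicle.

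Chaf1b, the middle subunit of CAF-1, had 33.6, 34.1, 39.8, 51.7 and 25.5 in OXA and 26.7, 20.2, 29.2, 19.7 and 47.2 in vehicle (0.39 ± 0.29 (SE; limma adjusted p = 0.323)). Uhrf1, which recognises half-methylated DNA and brings Dnmt1 to it, had 128, 114, 90.5, 143 and 233 in OXA and 120.2, 87.8, 112, 68.0 and 113 in vehicle (0.45 ± 0.24 (SE; limma adjusted p = 0.178)). Slbp, which binds the stem-loop of replication-dependent histone mRNAs, had 349, 266, 411, 253 and 318 in OXA and 297, 258, 369, 232 and 332 in vehicle (0.10 ± 0.17 (SE; limma adjusted p = 0.701)). None of the 3 separated the groups. The histone genes themselves, a list added after the table was seen, were poorly covered by poly(A)-based libraries, and 13 of 70 were tested. Hist2h2ac rose by 2.60, Hist1h1c changed by -0.75 and Hist3h2a by -0.78 on the log2 scale, and the other 10 did not pass. Of the histone genes that the filter removed, more had a higher read total in OXA than a lower one. The 13 therefore do not stand for histone genes as a group.

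Brca1 (chr11:101488464-101551955), which protects stalled forks and acts in recombination, had 35.1, 24.9, 18.1, 52.7 and 20.8 in OXA and 14.4, 6.75, 7.80, 9.87 and 14.3 in vehicle. All OXA libraries were above all vehicle libraries, and the change was 1.38 ± 0.36 (SE; limma adjusted p = 0.00976), from 159 reads in OXA and 60 in vehicle. Tipin, the partner of Timeless in the fork protection complex, had 104, 74.6, 81.5, 84.3 and 123 in OXA and 77.0, 45.0, 69.2, 45.7 and 80.1 in vehicle. D1 lay below A1 and A5 and the others above all vehicle libraries, and the difference of 0.57 ± 0.22 (SE; limma adjusted p = 0.0667) did not pass. Tipin passed under library totals (adjusted p = 0.0247), limma-voom (0.0347) and without A5 (0.0484).

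Summed over the 47 genes, the level was 6742, 5296, 5821, 6209.8 and 8169 normalized counts in OXA and 4768, 3850.4, 4529, 3906 and 5334 in vehicle. D1, the lowest OXA library, lay just below A5, the highest vehicle library, and the other OXA libraries were above all vehicle libraries. The ratio of means was 1.44. Scaled to library totals, the genes took 875 (D2) to 1329.6 (D4) CPM in OXA and 602 (A2) to 737 (A1) CPM in vehicle, without overlap.

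A few libraries held most of the extremes. Within OXA, D4 was highest for 25 of the 47 genes (53.2%, against 28.2% of all genes tested) and D1 lowest for 20 (42.6%, against 23.7%). Within vehicle, A5 was highest for 22 (46.8%, against 29.2%) and A4 lowest for 19 (40.4%, against 16.1%). Striated muscle markers ran the other way in OXA: their summed level was lowest in D4 (55658) and highest in D1 (200864), against 114150.0 to 143557 in vehicle. Basal keratinocyte markers were also highest in D4 (22274 to 46764 in OXA, 28688 to 39819.8 in vehicle). The part of tissue make-up in the differences among libraries was not tested.

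**Figure D4:**
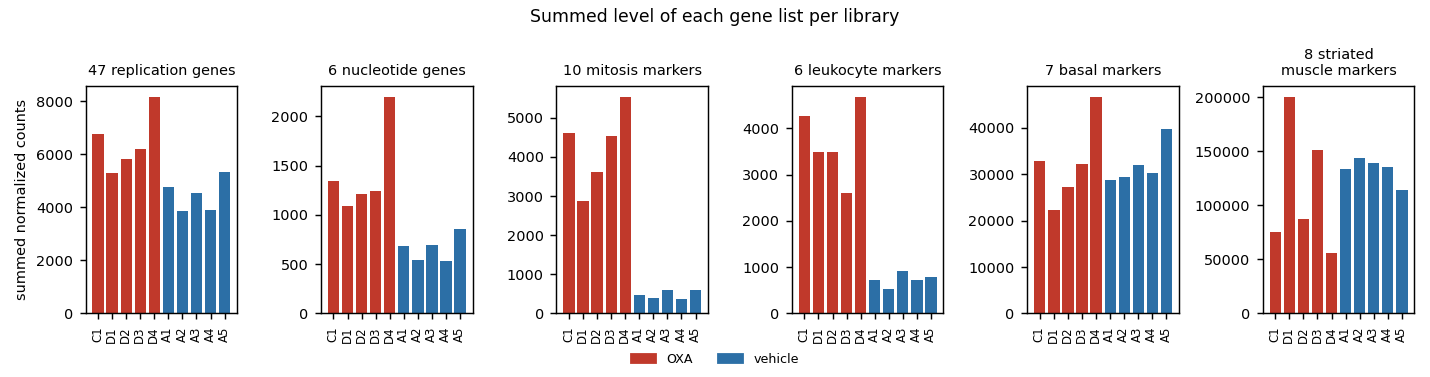
Summed normalized counts per library of the 47 replication genes, the 6 nucleotide genes among them, 10 mitosis markers, 6 pan-leukocyte markers, 7 basal epithelial markers and 8 striated muscle markers; OXA libraries are red and left, vehicle libraries blue and right, and each panel has its own axis from 0. The replication genes differ by a ratio of means of 1.44, the mitosis markers by 8.73 and the leukocyte markers by 5.05.

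The median fold change of mitosis markers was above that of the replication genes, a difference that was not tested. All 10 of 10 (Mki67, Top2a, Cdk1, Ccnb1, Ccnb2, Plk1, Bub1, Aurkb, Cdc20 and Birc5) rose, with log2 fold changes from 1.61 (Aurkb) up and a median of 2.78. Their summed level was 2876 to 5539 in OXA and 359.9 to 592 in vehicle, a ratio of means of 8.73. Of the 47 replication genes, none reached that median; Rrm2, at 2.22, came nearest.

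Markers of immune cells moved with the same contrast. Pan-leukocyte markers rose in 6 of 6 (summed level 2601 to 4685 in OXA and 529 to 919.8 in vehicle), T cell markers in 7 of 8 (407 to 454 in OXA and 44.3 to 123 in vehicle), and B and plasma cell markers in 6 of 7 tested of 8 (1457 to 5417 in OXA and 81.0 to 947 in vehicle). Myeloid markers rose in 8 of 8, with 2512 to 5268 in OXA and 1312 to 2099.8 in vehicle. Suprabasal epithelial markers fell in 5 of 6, with 203210.0 to 537863 in OXA and 629250.0 to 1071980.0 in vehicle. Basal markers were mixed: of 7, 2 rose and 2 fell, and their sums overlapped with a ratio of means of 1.01. Whether the replication genes changed in epithelial or in immune cells was not tested.

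Both values of a ratio come from 1 library, so its scaling factor enters only through the 1 added to each normalized count. By this measure 10 pairs of partners or paralogs were compared by exact permutation (two-sided, every split of the libraries; smallest possible p 0.00794), with Benjamini-Hochberg adjustment over the 10. The ratio of Rrm2 to Rrm1 was higher in OXA, at 0.50, 1.001, 0.54, 0.17 and 0.66 on the log2 scale, against 0.12, -0.21, -0.24, -0.33 and -0.36 in vehicle, without overlap. The difference was 0.78 (exact p = 0.00794, the smallest possible, adjusted p = 0.0397). The ratio of Rrm2 to Rrm2b, its p53-induced counterpart in resting cells, was 2.35, 2.64, 3.36, 2.40 and 3.46 in OXA and 0.38, -0.31, 0.15, -0.55 and 0.36 in vehicle, a difference of 2.84 with the same exact and adjusted p. In every OXA library Rrm2 lay above and Rrm2b below all vehicle libraries. This ratio therefore had to separate the groups, and its p adds nothing to the values of the single genes. Leaving out any 1 vehicle library, or D1, gave adjusted p of 0.0529 to 0.0794 for both ratios, with differences of 0.67 to 0.86 and 2.70 to 2.93.

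**Figure D5:**
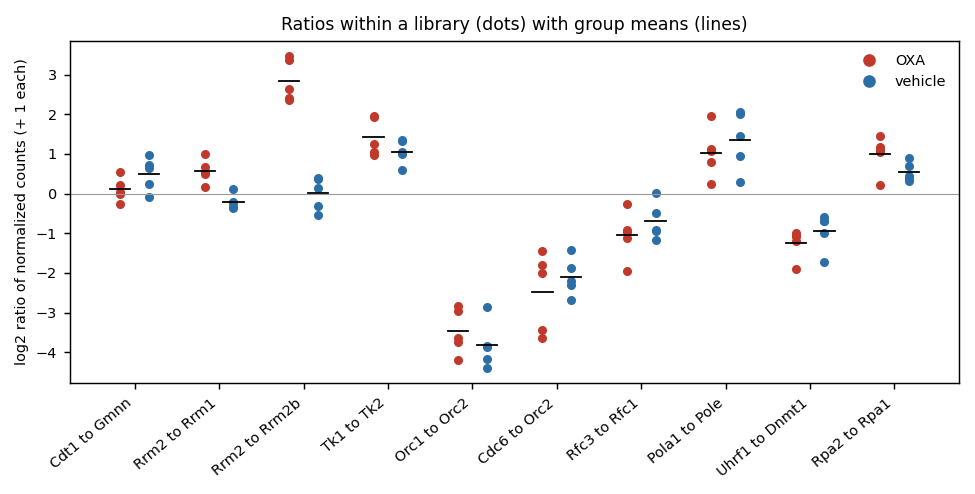
Log2 ratio of the normalized counts of 10 gene pairs (1 added to each) in every library, OXA in red left and vehicle in blue right of each tick, with group means as lines. The groups separate for Rrm2 to Rrm1 and Rrm2 to Rrm2b and overlap for the other 8.

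The other 8 ratios did not pass (adjusted p between 0.298 and 0.476). The licensing factor Cdt1 relative to its inhibitor Gmnn was -0.27, 0.00, 0.22, 0.03 and 0.53 in OXA and 0.64, 0.97, -0.09, 0.24 and 0.73 in vehicle, a difference of -0.40 (exact p = 0.119, adjusted p = 0.298). Rpa2 to Rpa1 differed by 0.45 (exact p = 0.0952, adjusted p = 0.298). Tk1 to its mitochondrial counterpart Tk2 differed by 0.37, Orc1 to Orc2 by 0.36, Cdc6 to Orc2 by -0.37, Rfc3 to Rfc1 by -0.34, Pola1 to Pole by -0.32 and Uhrf1 to Dnmt1 by -0.30.

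Among 30 tested genes of 31 further replisome and checkpoint genes, 10 rose (33.3%) and 1 fell (3.33%), with a median log2 fold change of 0.42. Over all genes tested, 15.7% rose and 14.2% fell, and in 12% every OXA library lay above every vehicle library. Both subunits of the kinase that fires licensed origins rose. Dbf4, the activating subunit, had 176, 166, 348, 199 and 231 in OXA and 70.9, 47.2, 58.5, 38.4 and 91.6 in vehicle (1.86 ± 0.25 (SE; limma adjusted p = 1.08e-04)). Cdc7, the catalytic subunit, had 52.7, 56.1, 32.6, 41.2 and 36.7 in OXA and 20.5, 20.2, 8.77, 14.0 and 20.03 in vehicle (1.37 ± 0.29 (SE; limma adjusted p = 0.00287)). Neither overlapped between the groups. Wdhd1, which links the helicase to polymerase α, rose by 1.29 ± 0.27 (SE; limma adjusted p = 0.00286), and Pole3, a histone-fold subunit of polymerase ε, changed by -0.46 ± 0.16 (SE; limma adjusted p = 0.0434). The call of Pole3, the single fall, was lost with no filter (adjusted p = 0.0646), library totals (0.0936), limma without the trend (0.0736), edgeR (0.0515) and without any 1 library other than D2 (0.0536 to 0.0973).

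Of 25 tested genes of 26 further nucleotide enzymes, 8 rose (32%) and 6 fell (24%), with a median log2 fold change of 0.08. The shares over all genes tested were 15.7% and 14.2%. With library totals 9 rose and 3 fell, against 19.8% and 10.5% of all genes tested under that scaling. Samhd1, which degrades deoxynucleotides and is abundant in myeloid cells, had 1951, 1864, 2614, 2242 and 2583 in OXA and 249.6, 235, 447, 385 and 242 in vehicle (2.89 ± 0.19 (SE; limma adjusted p = 3.22e-07)). The mitochondrial folate enzymes Mthfd2 and Shmt2 rose by 2.22 ± 0.23 (SE; limma adjusted p = 1.63e-05) and 1.35 ± 0.13 (SE; limma adjusted p = 7.90e-06). None of these 3 overlapped between the groups, a pattern found with OXA above in 12% of all genes tested.

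Those that fell belonged to several branches. Rrm2b had 95.4, 74.6, 41.6, 77.6 and 79.8 in OXA and 107, 106, 104, 121 and 110.2 in vehicle (-0.61 ± 0.21 (SE; limma adjusted p = 0.0375)), opposite in sign to Rrm2. Dctd, which turns dCMP into dUMP for Tyms, changed by -1.14 ± 0.20 (SE; limma adjusted p = 6.75e-04), and Dhodh of pyrimidine synthesis by -0.74 ± 0.23 (SE; limma adjusted p = 0.0280). In purine synthesis Adsl changed by -0.99 ± 0.23 (SE; limma adjusted p = 0.00461), Paics by -0.68 ± 0.14 (SE; limma adjusted p = 0.00262) and Impdh2 by -0.44 ± 0.13 (SE; limma adjusted p = 0.0194). With library totals the calls of Rrm2b (adjusted p = 0.129), Dhodh (0.0608) and Impdh2 (0.0835) were lost. Rrm2b was also lost without any 1 vehicle library, D2 or D3 (0.0505 to 0.083), Dhodh without A2, A3, A5 or C1 (0.0553 to 0.0712) and Impdh2 without C1 (0.0517). In all but Impdh2 every OXA library was below every vehicle library, as in 10.4% of all genes tested.

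Of 27 further S-phase genes, all tested, 10 rose (37.0%) and 2 fell (7.41%), with a median log2 fold change of 0.15. Over all genes tested, 15.7% rose and 14.2% fell, and in 12% every OXA library lay above every vehicle library. With library totals 11 rose and 0 fell, against 19.8% and 10.5% of all genes tested under that scaling. The histone chaperone Asf1b rose by 2.001 ± 0.23 (SE; limma adjusted p = 3.05e-05), the histone carrier Nasp by 0.98 ± 0.17 (SE; limma adjusted p = 7.64e-04) and the transcription factor E2f2 by 1.58 ± 0.28 (SE; limma adjusted p = 8.89e-04), each without overlap. The replication-linked gene Cdca7 changed by -0.48 ± 0.16 (SE; limma adjusted p = 0.0398), with ranges that overlapped. Its call was lost with library totals (adjusted p = 0.139), no filter (0.0598), limma without the trend (0.0558) and without any 1 of A1, A2, A4, A5, C1, D1 and D2 (0.0554 to 0.0877).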

How the data were processed

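RNA of 10 mouse esophagus libraries (5 OXA, 5 vehicle) was measured by CEL-Seq, per the labels' protocols. The submitters' processing notes name GRCm38, DESeq2 1.18.1, HTSeq 0.11.2, Bowtie2 2.2.6, TopHat2 2.1.0, Trim Galore with cutadapt 1.10 and FastQC 0.11.5, without roles. Each deposited value is a signal, a read count over the factor of its library, rounded, as the values themselves show: dividing by the step of each library gave whole reads for 100% of values (tolerance 0.006). The sources used here give no strand setting, rule for multi-mapping reads or use of molecular identifiers. Without identifiers reads are not independent molecules.

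The 47 genes, the other lists and the ratios were chosen with earlier results of these data known, so their patterns are descriptions. limma 3.58.1 (R 4.3.3) was run on log2(value + 1) for the 14712 of 54446 genes with a mean of at least 5, of 26612 with a read, with Benjamini-Hochberg adjustment. Alternatives were pseudocounts 0.5 and 5, other filters, library totals, TMM, quantile scaling, no trend, edgeR 4.0.16, DESeq2 1.42.0 and limma-voom on recovered reads, and fits with libraries left out or with the number in the title as a block. The procedure was tested on simulated data. Per-library values were printed for a set list of members. In each further list, the genes to name were the 3 with the smallest p and those called against the majority of their list. Of these, Dbf4, Cdc7, Samhd1 and Rrm2b have per-library values and the others a fold change only. Other genes are said to have been chosen after their values were seen. Exonic overlaps came from the annotation and near-identical copies from blastn 2.17.0. Of 48 promoter windows for 39 members, RefSeq GRCm38.p6 was the source. The promoters of Tipin, Rfc2, Gins1, Gmnn, Gins2, Pole, Mcm4 and Exo1 were not analysed here. One further S-phase gene is not reported here.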

Additional observations from a re-analysis of the deposited data

Results flagged for a closer look

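In 8 of 94 groups of 5 libraries (47 genes, both treatments), 1 library stood so far from the others that the gap took more than 0.71 of the range. That limit marks about 1 group in 20 for independent, normally distributed values. The values here are not on a log scale and the genes share libraries, so the 8 cannot be set against that rate. In OXA the library was D4 each time: Rrm2 at 889.17 normalized counts, Mcm2 at 330.44, Tyms at 169.21, Ung at 105.36 and Pold1 at 49.49, all the highest of their group. In vehicle the marks fell on different libraries, with Dnmt1 at 226.95 in A4, Mcm4 at 118.76 in A5 and Mcm10 at 16.44 in A1. D4 is a shallow OXA library (3848628 reads) with the lowest striated muscle and the highest basal marker sums of its group, and the part of either in these values was not tested. Without D4 the log2 fold changes were 2.03 for Rrm2 and 1.01 for Mcm2, both past the threshold.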

How the results depend on the processing

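Of the 15 calls among the 47 genes, 12 held under all 23 alternatives; the exceptions were Gins2, Rfc5 and Chaf1a. Of the 32 genes not called, 24 were called under none of them. With library totals 20 genes rose and 1 fell, and the cause was not tested. The count of falls, 2, was 1 with no filter, limma-voom or without A5, D2 and D4, and 1 to 2 with each library left out. Among further replisome genes the single fall became 0 with no filter, library totals, no trend or edgeR (0 to 1 with libraries left out). Further nucleotide genes had 3 falls with library totals, and 5 to 8 rises with libraries left out. Further S-phase genes had 1 fall with no filter, no trend or without A5, D2 and D4, 0 with library totals, and 1 to 3 with libraries left out. The count of ratios past the threshold was 0 to 2 with each library left out and 0 without A5, D2 and D4, where fewer splits exist.

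Signs turned only for genes near 0. Orc6 was 0.11 (library totals), 0.034 (edgeR), 0.030 (DESeq2), 0.015 (limma-voom), 0.16 (without A5, D2 and D4) and -0.18 to 0.087 with libraries left out. Cdc6 was -0.081 with quantile scaling and -0.16 to 0.36 with libraries left out, Pola2 -0.017 with TMM and -0.12 to 0.14, and Pcna 0.12 with library totals, 0.0022 with edgeR and -0.083 to 0.081. Rpa1 was 0.0024 with library totals, Rfc3 -0.25 to 0.0057 and Dut -0.0065 to 0.24 with libraries left out. The fewest reads over both groups were those of Orc1 (47 in OXA, 26 in vehicle) and Exo1 (97 in OXA, 73 in vehicle). In vehicle alone, the called genes Mcm10 and Brca1 had fewer than Exo1, at 60 reads each. Counting error is largest where reads are fewest, and its part in the results of these genes was not tested.

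The numbers 1 to 4 occur in both groups (D1 to D4, A1 to A4), and no source says that they pair libraries. Deviations from the group means correlated between same-numbered libraries at 0.12 (number 1), -0.19 (number 2), -0.15 (number 3) and 0.03 (number 4) across genes. D1 correlated best with A2 (0.18). Such correlations cannot decide whether the numbers pair libraries, since a pairing need not show in them. Fits of these 8 libraries by limma, chosen after the results were seen and not counted among the 23, had the number as a replicate block or no block. With the replicate block 8 of the 47 genes rose and 0 fell, against 10 and 1 without it; of all genes tested, 1428 rose and 1084 fell, against 1704 and 1417. Further replisome genes had 4 rises and 0 falls in both, further nucleotide genes 5 rises and 2 falls with the block and 6 and 4 without, and further S-phase genes 8 rises and 0 falls with it and 10 and 0 without. Pold2 had an adjusted p of 0.0884 with the block and passed without it; Rfc2 had 0.164 with the block and 0.0866 without. In both fits Cdc6 was -0.19 and Pola2 -0.013 on the log2 scale.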
